A study of Homo sapiens with 12 samples.

Results

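Nascent transcription was compared between U2OS-AsiSI and U2OS cells that had both been given an siRNA against INTS11 (siINTS11). U2OS is a human osteosarcoma line. U2OS-AsiSI is a derived line that carries the rare-cutting restriction nuclease AsiSI joined to an oestrogen receptor domain, so that 4-hydroxytamoxifen (OHT) moves the nuclease into the nucleus, where it cuts DNA. The 6 libraries of the comparison, 3 of each line, were taken by sample title from the 12 libraries of the series. All 6 came from cells transfected for 48 hours with siINTS11. The labels give 1 hour of OHT for the U2OS-AsiSI cells and no OHT for the U2OS cells. Line, nuclease, DNA breaks and OHT therefore differ together and cannot be told apart. The other 6 libraries are the same lines under a control siRNA (siCtrl), again with OHT for U2OS-AsiSI alone, and gave the same line contrast without sharing a library with it.

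The assay was TT-seq. A brief pulse of 4-thiouridine marks RNA while it is being made, and only marked RNA is purified for sequencing, so introns are covered as well as exons. INTS11 is the endonuclease of Integrator, a complex that cuts the RNA emerging from RNA polymerase II near gene starts and so ends transcription early. Short inducible genes such as FOS and EGR1 are among the best known genes under its control. Double-strand breaks made by AsiSI activate the kinase ATM and the p53 pathway and are known to silence transcription close to the cut.

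The 3 U2OS-AsiSI libraries held 20704611 to 26579035 counts, fewer than any of the 3 U2OS libraries, which held 29397678 to 31743963. Replicates within each group differed by more than sampling noise (chi-square per degree of freedom 2 and 2.44), so each library was counted as a separate sample. The labels do not say whether replicates came from separate cultures, so p-values measure only the spread between these samples, which may be technical. Genes dense in reads did not follow library depth: the mitochondrially encoded genes summed to between 11829 and 12027 counts in every library of the series. A gene with equal raw counts in all 6 libraries thus receives a log2 difference of 0.28 after scaling, against 0.04 in the siCtrl arm. That value is given below beside groups of dense genes. Levels are CPM, a gene's count relative to the library total after TMM scaling, differences are log2 of U2OS-AsiSI over U2OS with their standard error (SE), and adjusted p-values come from edgeR's quasi-likelihood test over all genes tested.

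INTS11, the siRNA target, was at 9.69, 10.1 and 10.3 CPM in U2OS-AsiSI and at 8.28, 7.42 and 7.57 CPM in U2OS. Its 3 U2OS-AsiSI values all lay above the U2OS values, with a log2 difference of 0.37 ± 0.084 (adjusted p = 0.000457). Under siCtrl the INTS11 difference was 0.08 (adjusted p = 0.513), and the change of the difference between the siRNAs did not pass (0.25 ± 0.12, adjusted p = 0.235). The siRNA acts on mature RNA, and INTS11 overlaps another gene on its strand, so these nascent counts do not measure the depletion. ESR1, whose ligand-binding domain the fusion borrows, was at 10.9, 12.9 and 12.6 CPM in U2OS-AsiSI and at 10.8, 11.1 and 10.7 CPM in U2OS. The difference for ESR1 was 0.15 (adjusted p = 0.115), and it reached 0.23 (adjusted p = 0.0247) without U2OS-AsiSI siINTS11 replicate 1. Of the 15 Integrator subunit genes tested, 4 rose (26.7%) and 5 fell (33.3%), against 22.2% and 21.4% of all genes tested. INTS1, the large backbone subunit, rose by 0.38 ± 0.049 (adjusted p = 3.58e-08). INTS2, another backbone subunit (-0.25), and INTS8, which recruits the phosphatase PP2A (-0.22), fell.

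Many genes differed between the lines, and most by little. Of 20802 genes tested, 9068 passed at an adjusted p under 0.05 (43.6%), 4624 of them higher (22.2%) and 4444 lower (21.4%) in U2OS-AsiSI. Each count of list members that rose or fell below is to be read beside these shares. With library totals alone as the scaling, 5645 were higher and 3344 lower, so that the share of calls that were higher moved from 51% to 62.8%. With all 12 libraries in the fit it moved the other way, to 41.3%, with 3672 higher and 5222 lower. The values of the lines did not overlap for 10822 genes (52.02%), against which each statement on overlap below is to be read. The median size of the called differences was 0.30, and 181 genes (0.87%) changed at least 2-fold, 102 up (0.49%) and 79 down (0.38%). The count of 2-fold changes was 301 without U2OS-AsiSI siINTS11 replicate 1. In the siCtrl arm, 6963 of 19935 genes passed (34.9%), 3542 up (17.8%) and 3421 down (17.2%). At least 2-fold changes were found there for 104 genes (0.522%), 61 up (0.306%) and 43 down (0.216%). Genes called in both arms numbered 5007, which is 56.59% of the calls under siINTS11 that could be tested under siCtrl and 72.28% of the siCtrl calls, and 4958 of them had the same sign. Across the 19531 genes tested in both arms the differences correlated with a Pearson r of 0.64 and a Spearman rho of 0.66. These describe genes, which are not independent replicates, and gene length and read density are shared by both arms.

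**Figure D1:**
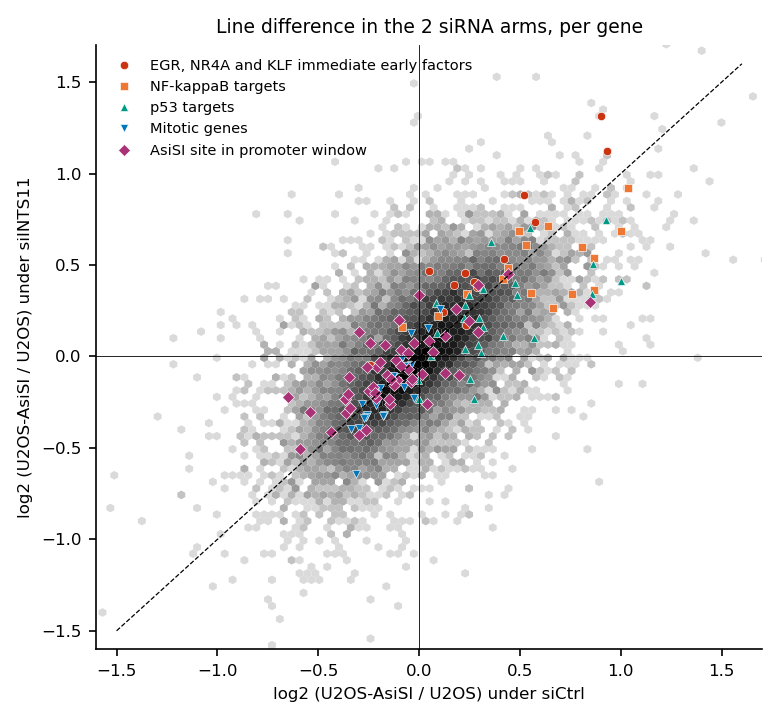
Each gene's log2 difference between U2OS-AsiSI and U2OS under siINTS11 (vertical) against that under siCtrl (horizontal), with all genes as grey bins and 5 gene groups as coloured symbols (genes beyond the axes are not drawn). The groups follow the dashed line of equality, with many p53 targets (green triangles) below it and EGR, NR4A and KLF factors (red circles) mostly on or above it.

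A change of the line difference between the siRNAs was tested by the interaction over all 12 libraries. It passed for 832 of 21521 genes (3.87%), 164 higher (0.762%) and 668 lower (3.1%) under siINTS11. For 20 genes (0.0929%) that change was at least 2-fold, 10 in each direction (0.0465% each). This count depended on single libraries. It was 286 to 502 without any 1 library other than U2OS-AsiSI siINTS11 replicate 1 (935), U2OS-AsiSI siCtrl replicate 3 (783) or U2OS siCtrl replicate 2 (946). The median change over all 21521 genes was -0.05, although the median difference was 0.01 in each arm fitted alone. The interaction fit scaled all 12 libraries together, so a printed change need not equal the gap between the values of the arms. The part of this shift in the excess of lower calls was not tested.

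AsiSI cuts the 8-base palindrome GCGATCGC, and the promoters that carry it are the places where a cut could lie closest to a gene start. The sequence was present in 73 of 35116 RefSeq promoter windows of 300 bases (0.208%), which run from 250 bases before to 50 bases after the annotated start in GRCh38.p14. Because it is a palindrome, 1 search covers both strands. These windows belong to 61 genes of the count tables, of which 51 were tested. The sites of the 6 genes with the smallest adjusted p, and of RNF166, which had the highest difference, are printed 5′ to 3′ on the strand of the gene, with the recognition sequence in capitals. They lie at chr1:230868476-230868505 (C1orf198), chr9:14322421-14322450 (NFIB), chr17:59106924-59106953 (TRIM37), chr2:207165992-207166021 (KLF7), chr9:36258505-36258534 (GNE), chr7:108003314-108003343 (LAMB1) and chr16:88703737-88703766 (RNF166), all on the minus strand. The C1orf198 site lies just inside the transcribed part and the others lie upstream of the start. Which of these sites the nuclease cut was not measured here.
C1orf198: ccatggcggcgGCGATCGCggcttcgcgct
NFIB: gcggggaagggGCGATCGCgcgaccccggg
TRIM37: gcgggaactagGCGATCGCtccacgctcct
KLF7: ggggaagagaaGCGATCGCgagagaaaaaa
GNE: ggcgtcagggcGCGATCGCggattcggcac
LAMB1: ccagccccgcaGCGATCGCagattcggctt
RNF166: agggccagtgcGCGATCGCccctccctttg

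Of the 51 genes with a site, 23 fell (45.1%) and 7 rose, with a median difference of -0.10 (-0.05 with library totals alone) against 0.01 over all genes tested. C1orf198, a gene of little-known function, was at 47.5, 40.8 and 48.6 CPM in U2OS-AsiSI and at 63.5, 65.4 and 66.6 CPM in U2OS. All its U2OS-AsiSI values lay below the U2OS values, a 1.42-fold difference (log2 -0.51 ± 0.051, adjusted p = 8.86e-11). NFIB, a nuclear factor I transcription factor, was at 302, 291 and 286 CPM against 391, 386 and 404 CPM, and fell by 0.43 ± 0.042 (adjusted p = 5.71e-11). TRIM37, a ubiquitin ligase of the centrosome, was at 214, 212 and 211 CPM against 282, 279 and 288 CPM, a fall of 0.41 ± 0.041 (adjusted p = 7.68e-11). In both genes the groups were apart by far more than their spread. KLF7, a Krüppel-like factor (-0.31), and GNE, the first enzyme of sialic acid synthesis (-0.28), fell by less. LAMB1, a laminin chain, carried a site and rose, at 213, 211 and 200 CPM against 166, 155 and 154 CPM (log2 0.39 ± 0.043, adjusted p = 1.15e-09). RNF166, another ubiquitin ligase, rose by 0.45 ± 0.084 from a low level. The site in the promoter therefore went with values on both sides.

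**Figure D2:**
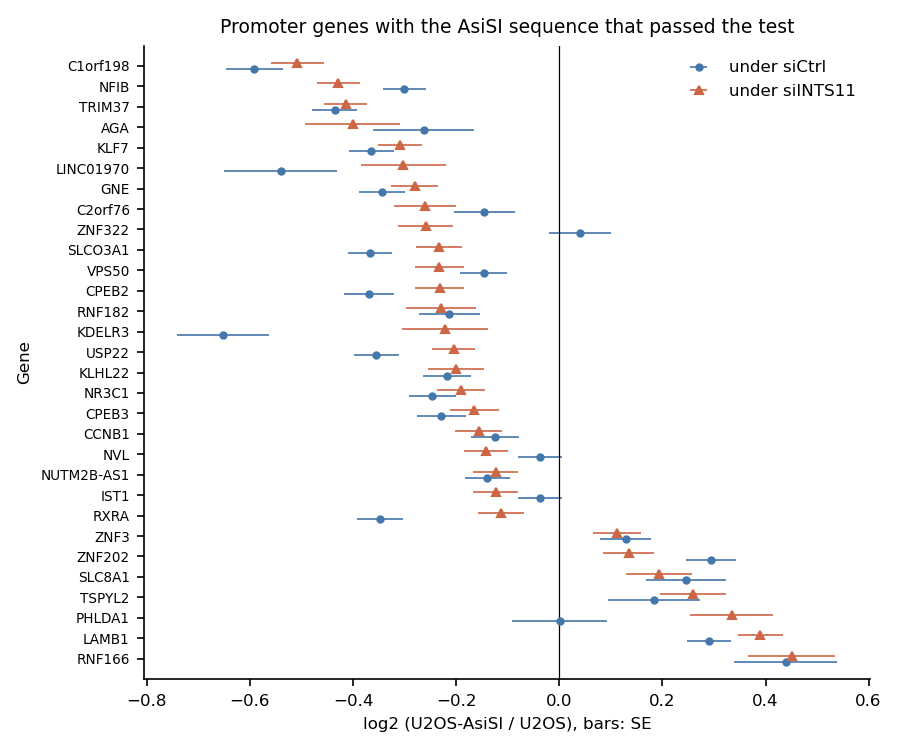
Log2 difference between U2OS-AsiSI and U2OS, with its SE, for the 30 promoter-site genes that passed under siINTS11 (triangles), beside the same genes under siCtrl (circles). The 23 genes that fell run from -0.51 (C1orf198) to -0.11 (RXRA), and most circles lie on the same side of 0 as their triangle.

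The falls were much the same under siCtrl, where 21 of the 51 fell and 5 rose, with a median of -0.14. Of the 23 genes lower under siINTS11, 22 were below 0 under siCtrl and 19 passed there too. C1orf198 (-0.59), TRIM37 (-0.44), KLF7 (-0.36) and GNE (-0.34) each gave a siCtrl value a little beyond their siINTS11 value, and NFIB (-0.30) one nearer to 0. ZNF322 alone of the 51 passed the test of a change between the arms (-0.26 under siINTS11, 0.04 under siCtrl, change -0.33 ± 0.081, adjusted p = 0.0181). That change for ZNF322 did not pass without U2OS-AsiSI siINTS11 replicate 2 (adjusted p = 0.0697) or 3 (0.0687), U2OS siINTS11 replicate 3 (0.0872), U2OS-AsiSI siCtrl replicate 1 (0.0636) or U2OS siCtrl replicate 3 (0.147). The genes with a site were long, with a median span of 83.73 kb, and long genes were lower in general, as given further on. Among protein-coding genes in the 7th decile of span, with a median of 64.1 kb, 33% fell and the median difference was -0.07. In the 8th decile, with a median of 93.77 kb, 41.0% fell and the median was -0.10. The part of length in the values of the promoter-site genes was not tested. A site in the window upstream of the start went with 17 falls among 41 genes and a site after the start with 6 among 10. Over all genes tested 21.4% fell, and a difference between these positions was not tested.

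The immediate early transcription factors were higher in U2OS-AsiSI. These genes need no new protein to be induced and answer growth factor, stress and calcium signals within minutes. EGR1, a zinc finger factor, was at 51.3, 58.9 and 49.4 CPM in U2OS-AsiSI and at 25.2, 23.6 and 24.1 CPM in U2OS. Each U2OS-AsiSI library held close to or over 2-fold the level of each U2OS library, and the fitted difference was 2.18-fold (log2 1.12 ± 0.057, adjusted p = 4.31e-19). FOS, which pairs with JUN proteins to form AP-1, was at 20.5, 23.5 and 19.3 CPM against 11.8, 13.1 and 10.2 CPM, a 1.79-fold difference (adjusted p = 9e-12). MAFF, a small MAF factor, was at 124, 136 and 123 CPM against 70.7, 74.2 and 70.4 CPM, or 1.78-fold (adjusted p = 3.69e-18). For both, the lowest U2OS-AsiSI library was well above the highest U2OS library. FOSL1, a FOS relative, rose 1.52-fold (log2 0.60) and JUNB by 0.61.

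Of the 10 AP-1 factors tested, 9 rose and none fell, with a median of 0.44. JUN itself rose by 0.27 and JUND by 0.29, near the equal-count value of 0.28, and JUN had no difference past the threshold under siCtrl (-0.05, adjusted p = 0.573). Of 13 EGR, NR4A, KLF and IER factors, 11 rose and none fell, with a median of 0.45. KLF2, a factor known from endothelium, was at 16, 18.5 and 17.2 CPM against 9.71, 9.14 and 9.01 CPM (log2 0.89 ± 0.075, adjusted p = 1.05e-12). NR4A1, an orphan nuclear receptor, was at 26.3, 23.7 and 24.4 CPM against 15.6, 15.2 and 14 CPM (0.74 ± 0.064, adjusted p = 2.85e-12). Both genes were higher in every U2OS-AsiSI library. KLF6 (-0.05, adjusted p = 0.439) was a member that did not pass. Many of these genes are dense in reads, with a median of 0.214 reads per base for the AP-1 factors and 0.115 for the EGR, NR4A and KLF group, and 6 and 10 of them passed with a value above the equal-count value, as did 2807 of all 20802 genes (13.5%). Mean raw counts were higher in U2OS-AsiSI for 6 of 10 and 10 of 13 genes, and for 3978 of all genes. The 2 lists are also short, with median spans of 7.855 kb (AP-1) and 7.518 kb. Among protein-coding genes, 57.7% rose in the 1st decile of span (median 4.111 kb), with a median difference of 0.30. In the 2nd decile (9.496 kb) 45.6% rose, with a median of 0.18. The part of read density and of length in these values was not tested. Under siCtrl the medians were 0.41 and 0.27. Only FOSL2, among these 23, passed for a change between the arms (0.12 under siINTS11 against -0.25 under siCtrl, change 0.34, adjusted p = 0.00722).

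**Figure D3:**
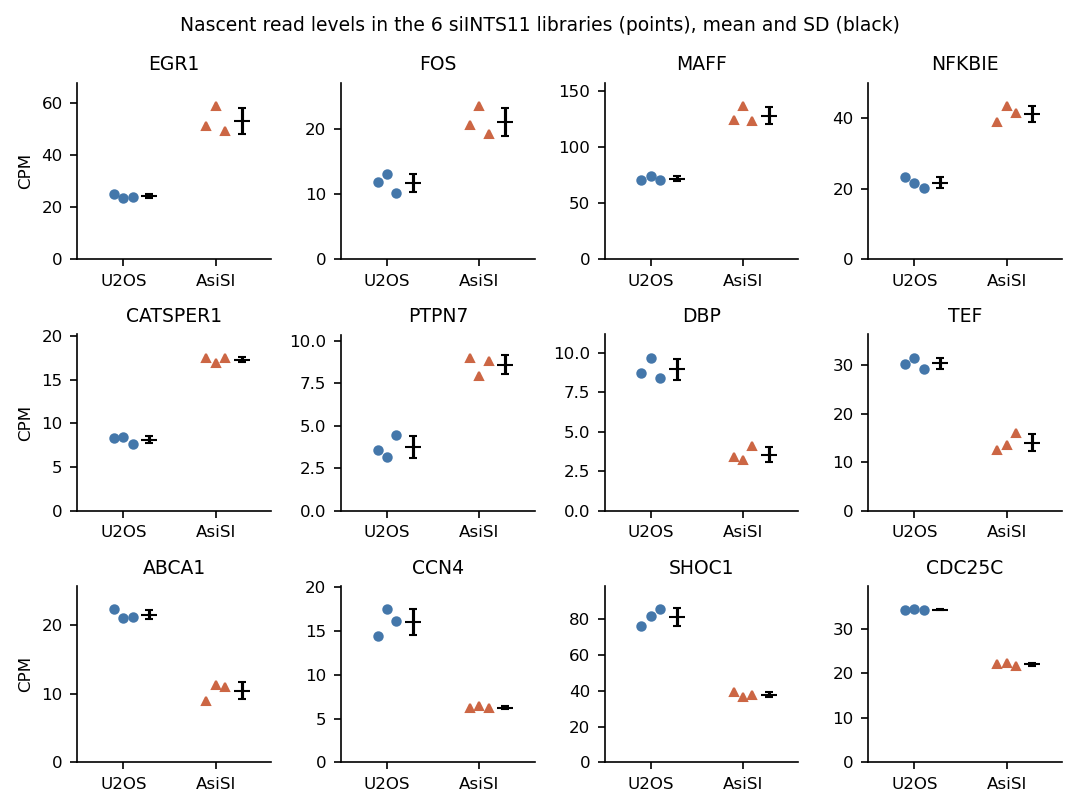
CPM of 12 genes in the 3 U2OS (circles) and 3 U2OS-AsiSI (triangles) siINTS11 libraries, each with its mean and SD beside the points and an axis that starts at 0. EGR1, FOS, MAFF, NFKBIE, CATSPER1 and PTPN7 are higher in all 3 U2OS-AsiSI libraries, and DBP, TEF, ABCA1, CCN4, SHOC1 and CDC25C are lower in all 3.

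Inhibitors that these signals induce mostly rose as well. Of 11 dual-specificity phosphatase, Sprouty and SPRED genes, which damp MAP kinase signalling, 8 rose (72.7%) and 1 fell (9.09%). Over all genes 22.2% rose and 21.4% fell. The list had a median of 0.33 (0.35 under siCtrl), and 6 of the 11 passed above the equal-count value of 0.28. The median span is 13.63 kb. In the 2nd and 3rd deciles of span of protein-coding genes (medians 9.496 and 15.57 kb) 45.6% and 39.3% rose. DUSP2, a phosphatase of nuclear ERK, was at 21.1, 25.1 and 23.9 CPM against 12.8, 12.7 and 12.5 CPM (log2 0.88 ± 0.069, adjusted p = 1.2e-13). DUSP5, another nuclear ERK phosphatase, was at 55.4, 58.1 and 55.4 CPM against 34, 35.9 and 34.3 CPM (0.70 ± 0.048, adjusted p = 4.53e-15). The replicates of both genes were tight and the lines lay apart. DUSP5 differed more under siINTS11 than under siCtrl (0.40 there, change 0.26 ± 0.076, adjusted p = 0.046). SPRY2, an inhibitor of receptor tyrosine kinase signalling, rose by 0.70 in this arm and by 0.69 in the other. DUSP10, which acts on JNK and p38, was the member that fell (-0.36 ± 0.045, adjusted p = 1.52e-08).

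NF-kappaB targets, which include inflammatory cytokines and the pathway's own inhibitors, were higher too. Of 16 tested, 14 rose and none fell, with a median of 0.45. NFKBIE, an IkappaB inhibitor, was at 38.9, 43.5 and 41.4 CPM in U2OS-AsiSI and at 23.4, 21.7 and 20.2 CPM in U2OS, a 1.89-fold difference (log2 0.92 ± 0.058, adjusted p = 1.99e-16). RELB, a subunit of the non-canonical pathway, was at 68.8, 71.4 and 75.3 CPM against 50.1, 43.3 and 49 CPM (0.60 ± 0.05, adjusted p = 8.83e-13). CXCL8, the neutrophil chemokine interleukin 8, was at 14.8, 14.1 and 15.1 CPM against 9.61, 8.45 and 9.32 CPM (0.69 ± 0.076, adjusted p = 1.19e-09). These 3 genes were higher in every U2OS-AsiSI library. Under siCtrl the same 14 of 16 count was reached with a median of 0.60. The test of a change between the arms passed for TNFAIP3, the ubiquitin-editing inhibitor A20 (0.34 against 0.76 under siCtrl, change -0.45, adjusted p = 0.00586), and BIRC3, an apoptosis inhibitor (0.36 against 0.87, change -0.54, adjusted p = 0.0148), both smaller under siINTS11. Without U2OS siCtrl replicate 3 neither passed (TNFAIP3 -0.30, adjusted p = 0.0641; BIRC3 -0.46, 0.0656), nor did BIRC3 without U2OS siCtrl replicate 2 (0.0548) or U2OS-AsiSI siINTS11 replicate 2 (0.0543). The list has a median of 0.0602 reads per base and a median span of 9.492 kb. In the 2nd decile of span of protein-coding genes (median 9.496 kb) 45.6% rose under siINTS11, with a median of 0.18.

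YAP and TGF-beta targets rose in 14 of 22 cases and fell in 2, with a median of 0.26 (0.05 under siCtrl). The list has a median of 0.117 reads per base, and its median difference lies near the equal-count value of 0.28. Of the 22, 10 passed with a value above it (45.5%, against 13.5% of all genes). The median span is 15.49 kb, and 39.3% rose in the 3rd decile of span (median 15.57 kb). TAGLN, the smooth muscle protein transgelin, was at 31.9, 33.6 and 35.1 CPM against 21.8, 18.1 and 20.3 CPM (log2 0.74 ± 0.061, adjusted p = 6.21e-13). CCN1 (0.30) and CCN2 (0.42), matricellular proteins and classic YAP targets, are very dense (0.694 and 0.597 reads per base), and their siCtrl differences, -0.01 and 0.12, did not pass. The 2 that fell were ligands: BMP4 was at 10.8, 10.8 and 11.9 CPM against 19.2, 18.3 and 18.9 CPM (-0.75 ± 0.07, adjusted p = 1.58e-11), and TGFB2 at 534, 526 and 530 CPM against 675, 725 and 725 CPM (-0.42 ± 0.043, adjusted p = 1.61e-10). Both ligands were lower in every U2OS-AsiSI library. TGFB2 fell further under siINTS11 than under siCtrl (-0.22 there, change -0.23, adjusted p = 0.0438).

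The p53 targets, which p53 activates after DNA damage, rose in both arms and by less under siINTS11 for many members. Of 26 tested, 17 rose and 4 fell under siINTS11, with a median of 0.21. Under siCtrl 20 rose and none fell, with a median of 0.30. The list has a median span of 13.2 kb. Under siINTS11, 45.6% and 39.3% of protein-coding genes rose in the 2nd and 3rd deciles of span (medians 9.496 and 15.57 kb). The median differences of these deciles were 0.18 and 0.12. PLK3, a stress-responsive kinase, was at 35.3, 38.5 and 37.6 CPM against 23.1, 22.7 and 20.5 CPM (log2 0.75 ± 0.057, adjusted p = 5.97e-14). BTG2, an antiproliferative gene, was at 38.5, 44.4 and 39.5 CPM against 28.7, 30 and 27.1 CPM (0.51 ± 0.056, adjusted p = 9.12e-10). PHLDA3, an inhibitor of AKT, rose by 0.40 ± 0.051. All 3 were higher in every U2OS-AsiSI library. CDKN1A, which encodes the cell cycle inhibitor p21, was at 141, 159 and 140 CPM against 114, 126 and 122 CPM, a rise of 0.28 that equals the equal-count value for a gene at 0.333 reads per base.

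The line difference was lower under siINTS11 than under siCtrl for 19 of the 26 targets, and for 11 of them the change passed the test, with none passing in the other direction, against 3.1% lower and 0.762% higher over all genes. The median change was -0.19 over the list and -0.05 over all 21521 genes. FDXR, a mitochondrial reductase, rose by 0.41 under siINTS11 and by 1.00 under siCtrl (change -0.63 ± 0.091, adjusted p = 0.000153). BBC3, the proapoptotic protein PUMA, rose by 0.34 against 0.86 (change -0.55 ± 0.08, adjusted p = 0.000153). FAS, a death receptor, was at 33.2, 32.7 and 29.6 CPM in U2OS-AsiSI and 27.9, 31.4 and 29.9 CPM in U2OS, and these overlapped. Its difference of 0.10 (adjusted p = 0.161) stood against 0.57 under siCtrl (change -0.50 ± 0.092, adjusted p = 0.00192), and it passed with library totals alone (0.15, adjusted p = 0.0413). MDM2, the ubiquitin ligase that degrades p53, was at 0.02 (adjusted p = 0.735) against 0.31 (change -0.32 ± 0.07, adjusted p = 0.00913), which did not pass without U2OS-AsiSI siINTS11 replicate 3 (-0.26, adjusted p = 0.0623).

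TP53INP1, a nuclear cofactor of p53, differed in direction between the arms. It was at 30.5, 31 and 34.2 CPM in U2OS-AsiSI and at 35.4, 37.9 and 39.2 CPM in U2OS, so that all U2OS-AsiSI libraries were lower (-0.23 ± 0.055, adjusted p = 0.000652), while under siCtrl it rose by 0.27 ± 0.053. SESN1, a sestrin, was at -0.12 (adjusted p = 0.0295) against 0.25 (change -0.41 ± 0.066, adjusted p = 0.000496). The fall of SESN1 under siINTS11 did not pass when library totals alone set the scale (-0.08, adjusted p = 0.192), with DESeq2 (0.0531) or among genes under 0.1 reads per base (0.0651), nor without U2OS-AsiSI siINTS11 replicate 2 (adjusted p = 0.0508) or 3 (0.166) or U2OS siINTS11 replicate 1 (0.114) or 3 (0.101). The number of targets with a lower difference was 6 without U2OS-AsiSI siINTS11 replicate 3. The depth of the U2OS-AsiSI libraries also differs between the arms, and its part in these changes was not tested.

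**Figure D4:**
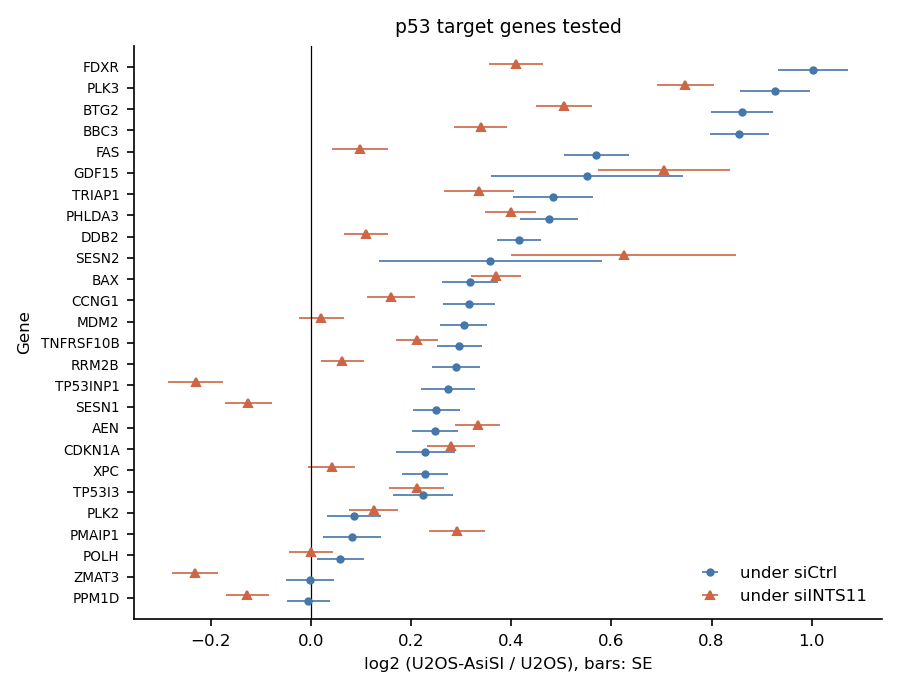
Log2 difference between U2OS-AsiSI and U2OS, with its SE, for the 26 p53 targets tested under siINTS11 (triangles) and siCtrl (circles), sorted by the siCtrl value. For 19 of the 26 the triangle lies to the left of the circle, with FDXR, BBC3, TP53INP1 and FAS among the widest gaps.

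Chaperone and amino acid stress genes mostly rose as well. Of 13 heat shock chaperone genes, 8 rose (61.5%) and 1 fell (7.69%), against 22.2% and 21.4% of all genes tested. Their median was 0.24 (0.14 under siCtrl) at a median of 0.0923 reads per base. Of the 13, 5 passed above the equal-count value of 0.28 (38.5%, against 13.5% of all genes). DNAJB1, an HSP40 cochaperone, was at 42.3, 48.5 and 41.8 CPM against 33.9, 34.8 and 33 CPM (log2 0.38 ± 0.054, adjusted p = 2.48e-07), and HSPA8, the constitutive HSC70, rose by 0.36. HSP90AB1, a constitutive HSP90, rose by 0.30, near the equal-count value, and HSPH1 fell by 0.13. Of 17 ATF4 targets, 11 rose (64.7%) and 1 fell (5.88%), with a median of 0.21 (0.17 under siCtrl), and 7 passed above the equal-count value (41.2%). TRIB3, a pseudokinase that restrains ATF4, was at 45.3, 45.9 and 44.4 CPM against 34.4, 36 and 34.9 CPM (0.37 ± 0.049, adjusted p = 7.36e-08). CEBPB rose by 0.45 and the amino acid transporter SLC7A5 by 0.31. SLC7A11, the cystine transporter, fell by 0.12. Of 17 interferon-stimulated genes, OAS3 alone rose (0.39 ± 0.088, adjusted p = 0.000401) and IFIT1 alone fell (-0.95 ± 0.24, adjusted p = 0.00132), with IFIT1 at 0.518 to 0.789 CPM against 1.08 to 1.41 CPM. IFIH1, the RNA sensor MDA5, was at -0.21 (adjusted p = 0.0836), and the median of the interferon list was -0.08.

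Repair genes showed no common direction. Of 27 homologous recombination and Fanconi genes, 3 rose (11.1%) and 6 fell (22.2%). Of 22 end joining and break signalling genes, 4 rose (18.2%) and 6 fell (27.3%). Over all genes 22.2% rose and 21.4% fell. Their medians, -0.03 and -0.02, turned positive with library totals alone (0.02 and 0.03), and the second also without U2OS-AsiSI siINTS11 replicate 3 (0.0035). RAD51B, a recombination mediator with a very long gene body, was at 525, 510 and 506 CPM against 604, 609 and 635 CPM (log2 -0.26 ± 0.042, adjusted p = 2.46e-06), and MRE11, the nuclease of the MRN complex, fell by 0.25, as did DNA2, an end resection nuclease, by 0.22. CHEK2, a checkpoint kinase, was at 44.8, 42.1 and 41.1 CPM against 54.4, 55.2 and 58.7 CPM (-0.39 ± 0.049, adjusted p = 1.33e-08). The ubiquitin ligase RNF8 fell by 0.31. MAD2L2, the shieldin subunit REV7, rose by 0.44. Under siCtrl these genes kept their sign: RAD51B was at -0.16, MRE11 at -0.11, DNA2 at -0.20, CHEK2 at -0.27, RNF8 at -0.51 and MAD2L2 at 0.17.

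Mitotic genes were lower in U2OS-AsiSI. Of 27 tested, 21 fell (77.8%) and 2 rose, with a median of -0.17 (-0.13 under siCtrl, where 19 fell). With library totals alone 14 fell. CDC25C, the phosphatase that activates CDK1, was at 22.2, 22.3 and 21.6 CPM against 34.3, 34.5 and 34.2 CPM. The 3 values of each line lay close together and the lines differed 1.56-fold (log2 -0.64 ± 0.055, adjusted p = 1.37e-12). The fall of CDC25C was larger than under siCtrl (-0.32, change -0.36 ± 0.08, adjusted p = 0.0103). DLGAP5, a spindle protein, was at 105, 108 and 105 CPM against 140, 135 and 143 CPM (-0.39), and CENPE, a kinetochore motor, at 154, 151 and 143 CPM against 192, 187 and 206 CPM (-0.39). Neither overlapped. AURKB (0.26) and CDC20 (0.15) were the members that rose. The list has a median span of 29.76 kb, and 16.8% of protein-coding genes fell in the 5th decile of span, whose median is 33.03 kb. Replication factors did not follow: 16 of 35 rose and 4 fell, with a median of 0.06. CDT1, the licensing factor, was at 28.7, 35.4 and 33.2 CPM against 21.4, 21.1 and 19.7 CPM (0.64 ± 0.063, adjusted p = 5.93e-11), and MCM7, a helicase subunit, rose by 0.45. ORC4, an origin recognition subunit, fell by 0.37.

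Among single genes, the largest falls past the threshold included several of low abundance. They were chosen among genes with a mean of at least 100 counts in the higher line whose lines did not overlap, so their separation is a description. Genes outside this choice had values down to -2.36 (AL512310.5). LINC02474, a long non-coding RNA, was at 4.58, 5.29 and 4.74 CPM in U2OS-AsiSI and at 12.5, 13.9 and 11.1 CPM in U2OS, a 2.58-fold difference (log2 -1.37 ± 0.096, adjusted p = 6.7e-15). LINC02474 had almost no line difference under siCtrl (-0.10, adjusted p = 0.7), and the change between the arms passed (-1.30 ± 0.21, adjusted p = 0.000476). CCN4, a WNT-induced matricellular protein, was at 6.16, 6.43 and 6.22 CPM against 14.4, 17.5 and 16.1 CPM (2.56-fold, adjusted p = 2.15e-16), with a change of -0.67 from the siCtrl arm (adjusted p = 0.00271). SHOC1, a meiotic crossover factor, was at 39.3, 36.4 and 37.7 CPM against 75.9, 81.5 and 85.6 CPM (2.14-fold, log2 -1.10 ± 0.05, adjusted p = 1.79e-20), against -0.46 under siCtrl (change -0.67 ± 0.071, adjusted p = 1.77e-06).

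IGFL2-AS1 and IGFL4, neighbours in the IGFL cluster of chromosome 19, fell together. IGFL2-AS1 was at 13.2, 14.8 and 17.1 CPM against 33.1, 36.4 and 33.2 CPM (2.27-fold, adjusted p = 1.61e-17), and IGFL4 at 4.02, 4.29 and 4.67 CPM against 8.75, 10.1 and 8.98 CPM (2.14-fold, adjusted p = 7.56e-12). Their differences were also larger than under siCtrl, by -0.70 (adjusted p = 0.000152) and -0.72 (adjusted p = 0.0238), although the change for IGFL4 no longer passed without any 1 of the 3 U2OS-AsiSI siINTS11 libraries (adjusted p = 0.051 to 0.0577), U2OS siINTS11 replicate 2 (0.0643) or 3 (0.0527), U2OS-AsiSI siCtrl replicate 2 (0.0962) or U2OS siCtrl replicate 3 (0.0818). MIAT, a nuclear non-coding RNA, was at 8.3, 7.47 and 9.52 CPM against 16.8, 18.2 and 18.9 CPM, and its log2 difference of -1.08 matched the -1.14 seen under siCtrl. CSRNP3, a putative transcription factor (-1.12), and AC009262.1, a non-coding RNA (-1.01), were also among the 12 largest falls. BMF, DBP, TEF and ABCA1, described next, complete the 12. This ranking covers called genes without overlap and with a mean of at least 100 counts in the higher line.

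DBP and TEF are PAR bZIP factors, output genes of the circadian clock. DBP was at 3.42, 3.19 and 4.07 CPM in U2OS-AsiSI and 8.72, 9.69 and 8.41 CPM in U2OS, and TEF at 12.6, 13.5 and 15.9 CPM against 30.3, 31.5 and 29.1 CPM. Both were more than 2-fold lower (DBP log2 -1.31 ± 0.11, adjusted p = 3.06e-13; TEF -1.11 ± 0.068, adjusted p = 8.19e-17). A list of clock genes that includes DBP was drawn up after these values had been seen. Of 18 tested, 12 fell (66.7%) and 4 rose (22.2%), with a median of -0.27 (-0.10 under siCtrl). Over all genes 21.4% fell and 22.2% rose. DBP counts among the falls, so the list is not separate evidence. PER3, a period gene, was at 39.9, 40.5 and 39.4 CPM against 73.7, 75.8 and 76.6 CPM (-0.92 ± 0.046, adjusted p = 4.31e-19). The repressor NR1D2 fell by 0.40. ARNTL, the activator BMAL1, went the other way, at 161, 150 and 160 CPM against 115, 116 and 117 CPM (0.44 ± 0.043, adjusted p = 4.25e-11), as did NFIL3 (0.39), a repressor that shares sites with DBP. Changes from the siCtrl arm passed for TEF (-0.50, adjusted p = 0.00607), PER3 (-0.38, adjusted p = 0.00103), ARNTL (0.26, adjusted p = 0.0124) and, barely, DBP (-0.60, adjusted p = 0.0467). The change for DBP did not pass on leaving out any library other than U2OS siCtrl replicate 2, with values of -0.46 to -0.70 and adjusted p of 0.054 to 0.176. The labels give no time of day for the harvests.

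ABCA1, the cholesterol exporter of the LXR pathway, was at 8.97, 11.2 and 11 CPM against 22.3, 21.1 and 21.1 CPM (2.08-fold lower, log2 -1.06 ± 0.074, adjusted p = 5.19e-15). ABCG1, its partner transporter, was at 8.6, 9 and 11 CPM against 19.4, 17.2 and 17.4 CPM (-0.92 ± 0.08, adjusted p = 2.29e-12). Both were lower in all U2OS-AsiSI libraries. Of 6 LXR targets, listed after ABCA1 was seen and with ABCA1 among them, 4 fell (66.7%, against 21.4% over all genes) and none rose. The change from the siCtrl arm for ABCA1 (-0.50, adjusted p = 0.0454) did not pass on leaving out any library other than U2OS-AsiSI siCtrl replicate 1 or U2OS siCtrl replicate 2, with ABCA1 values of -0.32 to -0.54 and adjusted p of 0.066 to 0.126. Sterol synthesis genes moved in the opposite sense: of 21 tested, 14 rose and none fell, with a median of 0.23 (0.26 under siCtrl). HMGCS1, an early enzyme of the pathway, was at 252, 267 and 236 CPM against 187, 184 and 187 CPM, a rise of 0.44 (adjusted p = 8.87e-11) without overlap, and its siCtrl difference was 0.28. BMF, a proapoptotic BH3 protein, fell 2.38-fold, and CCNG2, an unconventional cyclin, was at 12.7, 12.9 and 13.7 CPM against 23.5, 24.3 and 23.4 CPM (-0.86 ± 0.065, adjusted p = 5.08e-14). These 2 are FOXO targets. Of 15 such genes listed after the values were seen, BMF included, 9 fell (60%) and 4 rose (26.7%), TXNIP among the latter (0.81). Over all genes 21.4% fell and 22.2% rose.

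The largest rises among genes with a mean of at least 100 counts in the higher line were mostly in weakly transcribed genes, again chosen among those without overlap. Z82202.2, a long non-coding RNA, was at 5.75, 5.57 and 6.18 CPM against 2.58, 2.06 and 2.56 CPM (2.43-fold, adjusted p = 2.15e-11). PTPN7, a phosphatase of MAP kinases best known from lymphocytes, was at 9.01, 7.95 and 8.81 CPM against 3.6, 3.19 and 4.47 CPM (2.3-fold, adjusted p = 5.11e-12). CATSPER1, a sperm calcium channel, was at 17.4, 16.9 and 17.5 CPM against 8.34, 8.45 and 7.63 CPM (2.12-fold, adjusted p = 3.21e-15). CES1P2, a carboxylesterase pseudogene at 24.9, 26.9 and 25.6 CPM against 12.3, 11.4 and 10.7 CPM, rose 2.24-fold, although reads of near-identical copies may be shared. SEMA7A, a membrane-anchored semaphorin, was at 4.24, 5.09 and 4.41 CPM against 2.42, 1.79 and 1.88 CPM (2.23-fold, adjusted p = 4.62e-09) and was the top riser whose change from the siCtrl arm passed (0.82 ± 0.22, adjusted p = 0.0294), though not without replicate 2 or 3 of either line under siINTS11, or replicate 1 of either line under siCtrl (SEMA7A values of 0.65 to 0.86, adjusted p of 0.0622 to 0.12). SPOCD1 (1.14), AP003555.1 (1.07), EXOC3L2 (1.03), AC009063.4 (1.02), KRT79 (1.02) and AC087289.5 (1.00) made up the 12 with EGR1.

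Extracellular matrix and adhesion genes differed in both directions. Of 39 collagen genes, 17 rose and 11 fell, with a median of 0.09 (-0.07 under siCtrl). COL13A1, a transmembrane collagen, was at 283, 296 and 292 CPM against 197, 202 and 182 CPM (log2 0.59 ± 0.044, adjusted p = 3.57e-14), and COL6A3 of the microfibrillar collagen VI rose by 0.48. COL4A4, a basement membrane chain, was at 12.7, 11.1 and 14.4 CPM against 23.1, 20.3 and 25.1 CPM (-0.83 ± 0.077, adjusted p = 1.14e-11). Of 40 integrins and cadherins, 11 rose and 7 fell, shares near those over all genes (22.2% and 21.4%). ITGB8, which activates TGF-beta, was at 36.5, 37.4 and 36.8 CPM against 56.9, 56.4 and 56.7 CPM (-0.62 ± 0.047, adjusted p = 6.32e-14), a larger fall than under siCtrl (-0.18, change -0.47, adjusted p = 8.49e-05). ITGA3 (0.46) and ITGA2 (0.47), laminin and collagen receptors, rose. HOX genes had 5 rises (23.8%) and 3 falls (14.3%) among 21, with HOXC4 lower (-0.60) and HOXB7 higher (0.31). Chromosome 19 zinc finger genes had 18 rises (10.3%) and 38 falls (21.8%) among 174, the share of falls being near that over all genes. Their median of -0.04 became 0.01 with library totals alone. ZNF792 (0.65) and ZNF574 (0.41) rose and ZNF404 (-0.56) fell.

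Markers of the cell type gave the following values. Osteoblast and mesenchymal markers summed to 982 to 1040 CPM in U2OS-AsiSI and 1020 to 1060 CPM in U2OS, with BGLAP, the gene of osteocalcin, at 0 in all 6 libraries and 4 more of the 15 at no more than 10 counts. Of the 10 tested, 6 rose and 1 fell, with a median of 0.17. RUNX2, the osteoblast master regulator, was at 160, 166 and 175 CPM against 241, 272 and 274 CPM (log2 -0.65 ± 0.047, adjusted p = 1.05e-14), and it fell further than under siCtrl (-0.42, change -0.26, adjusted p = 0.0213). ENG, the TGF-beta coreceptor endoglin, was at 32, 33.5 and 34.4 CPM against 21.3, 19.9 and 19.4 CPM (0.72 ± 0.057, adjusted p = 2.26e-13), and ALPL rose by 0.44. Epithelial markers summed to 152 to 167 CPM against 126 to 133 CPM, with KRT18 (0.60) and KRT8 (0.32) higher. KRT8, the member with the most reads, lay near the equal-count value of 0.28. Its raw counts were 2065, 1773 and 2186 in U2OS-AsiSI and 2016, 1941 and 1876 in U2OS. The list had no common direction: of 8 tested, 3 rose and 1 fell, with a median of 0.0006. The lines did not overlap for 3 members that were higher and 3 that were lower in U2OS-AsiSI. GRHL2, an epithelial factor, was lower (-0.94, adjusted p = 0.00739) at under 1.1 CPM, and not so without U2OS-AsiSI siINTS11 replicate 3 (-0.75, adjusted p = 0.0723) or U2OS siINTS11 replicate 2 (-0.76, adjusted p = 0.0578). Haematopoietic markers were near absent, at 2.67 to 3.19 CPM against 2.55 to 3.37 CPM, HBB and HBA1 were at 0, and CD34 (0.13) and SPI1 (-0.24) did not pass.

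Gene classes dense in reads are set here beside the equal-count value of 0.28. Of 80 cytosolic ribosomal protein genes, 75 rose and none fell, with a median of 0.29 at a median of 0.275 reads per base. The median was 0.11 under siCtrl. RPLP2, a stalk protein, was at 37.7, 45.4 and 37.9 CPM against 28.7, 28.8 and 27.9 CPM (log2 0.50 ± 0.058, adjusted p = 3.46e-09), while RPL35 (0.40) and RPL18 (0.38) rose by less. Of 27 mitochondrially encoded genes, 18 rose with a median of 0.30 at 0.773 reads per base, against 0.04 and no calls under siCtrl. The median was 0.18 without U2OS-AsiSI siINTS11 replicate 2. MT-ND5, a complex I subunit, was at 67, 84.1 and 65.9 CPM against 56.2, 60.5 and 58.8 CPM (0.30), and MT-CYB (0.30) and MT-ND4 (0.29) gave like values. U2OS-AsiSI replicate 2, the library with the fewest counts, was the highest of the 6 for MT-ND5. None of the 8 snRNA genes tested, of the spliceosome and of U7, passed (RNU5B-1 0.28, adjusted p = 0.0606; RNU4-2 0.24, 0.101; RNU4-1 0.23, 0.115), and their median was 0.23 at 0.654 reads per base (0.12 without U2OS-AsiSI siINTS11 replicate 2). Replication-dependent histones had 10 rises (26.3%) and 2 falls (5.26%) among 38, the share of rises being near the 22.2% over all genes. Of the 38, 3 passed above the equal-count value (7.89%, against 13.5% of all genes). The histone median was 0.14 (0.057 without U2OS-AsiSI siINTS11 replicate 2), against -0.20 under siCtrl. Among members under 0.1 reads per base the histone median was -0.16. H2AC6 was at 106, 107 and 104 CPM against 115, 126 and 122 CPM (-0.20, adjusted p = 0.000274), H2BC15 fell by 0.23 and the linker histone H1-4 rose by 0.29. Depth moves with all 4 classes, and its part in their values was not tested.

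Read density and gene length both went with the difference, as the plot of medians by class shows. Genes under 0.01 reads per base had a median of -0.04, with 11.4% higher and 20.4% lower, and the 201 genes over 0.3 reads per base a median of 0.30, with 77.6% higher and none lower. Over the 14076 protein-coding genes the median ran from 0.30 in the shortest decile of span (57.7% higher) to -0.17 in the longest (56.1% lower). Several lists that mostly rose are short. Median spans were 13.63 kb for the phosphatase, Sprouty and SPRED genes and 15 kb for the chaperones. They were 14.79 kb for the ATF4 targets and 5.588 kb for the ribosomal protein genes. The 2nd and 3rd deciles (medians 9.496 and 15.57 kb) had 45.6% and 39.3% higher. The part of length in the values of these lists was not tested. Spearman's rho between span and difference was -0.49 across genes, -0.44 among genes under 0.1 reads per base, and -0.48 under siCtrl. The mean log2 CPM of the top quartile of span minus that of the bottom quartile was 2.32 ± 0.0675 in U2OS-AsiSI and 2.65 ± 0.0599 in U2OS (SD, n = 3 each), a difference of -0.34, with every U2OS-AsiSI library below every U2OS library. The exact two-sided permutation p was 0.1, the smallest that 3 against 3 allows.

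**Figure D5:**
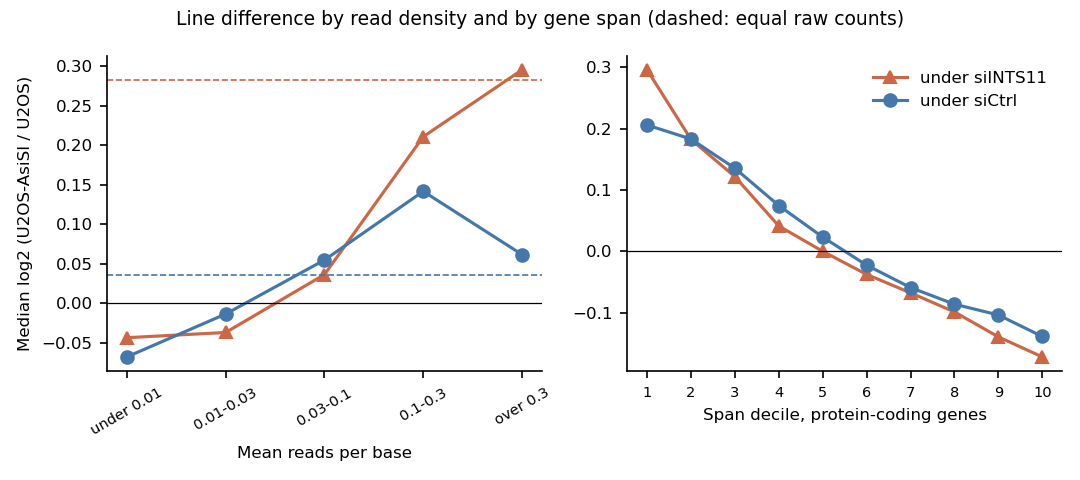
Median log2 difference between U2OS-AsiSI and U2OS under siINTS11 (triangles) and siCtrl (circles), by mean reads per base (left, all genes) and by decile of span from the shortest to the longest protein-coding genes (right); dashed lines mark equal raw counts. Dense genes reach 0.30 under siINTS11 and 0.06 under siCtrl, whereas the slope over span is alike in both arms.

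Along the genome, windows of 10 Mb differed in the same sense. The highest medians were in chromosome 8 from 140 Mb (0.31, 49 of 71 genes higher), chromosome 17 from 80 Mb (0.28, 46 of 73) and chromosome 22 from 50 Mb (0.27, 11 of 20), where the genes are short, with median spans of 11.55 to 16.41 kb. ARC, a neuronal immediate early gene in the first of these, was at 48.6, 58.2 and 50.5 CPM against 29.7, 33.5 and 31.2 CPM (log2 0.73 ± 0.057, adjusted p = 8.78e-14), and HGS (0.63), FASN, the fatty acid synthase (0.54), and PLXNB2 (0.44) led the others. The lowest medians were in chromosome 4 from 170 Mb (-0.28, 11 of 20 lower), chromosome 19 from 20 Mb (-0.27, 12 of 23) and chromosome 4 from 60 Mb (-0.24, 5 of 10), with median spans of 39.42 to 82.62 kb. NEIL3, a DNA glycosylase (-0.42), ZNF675 (-0.35) and the centromere protein CENPC (-0.27) fell there. All 6 windows had the same sign under siCtrl.

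Remaining lists were mixed. Their shares are to be read beside the 22.2% that rose and 21.4% that fell over all genes. Of 22 RNA polymerase II elongation factors, 9 rose (40.9%) and 5 fell (22.7%). ELL2, a super elongation complex subunit, was at 263, 256 and 240 CPM against 191, 183 and 200 CPM (log2 0.40 ± 0.044, adjusted p = 8.46e-10), and this was larger than under siCtrl (0.04, change 0.33, adjusted p = 0.00291). CDK9, the kinase of P-TEFb, rose by 0.38 and SUPT5H by 0.23. Oestrogen receptor targets rose in 5 (31.2%) and fell in 4 (25%) of 16 cases, with XBP1 (0.35) and CCND1 (0.27) up and ADCY9 (-0.39) down. KLF zinc fingers had 4 rises (26.7%) and 5 falls (33.3%) among 15, KLF12 among the falls (-0.42) and KLF10, which TGF-beta induces, among the rises (0.45). Of 26 hypoxia and glycolysis genes, 13 rose and 5 fell, with TPI1 (0.46), GAPDH (0.36) and HK2 (0.27) leading. Of 62 nuclear-encoded respiratory chain genes, 28 rose (45.2%) and 6 fell, with a median of 0.16 (0.17 under siCtrl). ATP5F1D (0.60), CYC1 (0.48) and UQCRC1 (0.36) were among the rises. The median span of this list is 12.02 kb. In the 2nd and 3rd deciles of span of protein-coding genes (medians 9.496 and 15.57 kb) 45.6% and 39.3% rose, with medians of 0.18 and 0.12. The share of respiratory chain genes that rose was thus near that of genes of like length.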

How the data were processed

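TT-seq reads were counted by the authors. The deposited tables hold raw counts per gene. Per the file headers their columns are laid out as featureCounts writes them, and each length equals the span from start to end, so introns lie within the counted feature. The submitters' processing notes name Trimmomatic 0.36, STAR 2.7, featureCounts and hg38. The strand setting and duplicate handling are not given in the sources used here, so reads of overlapping or antisense genes may be shared. Each count column was matched to a sample by the labels.

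Genes were tested in R 4.3.3 with edgeR 4.0.16 (filterByExpr, TMM, robust glmQLFit, glmQLFTest) on the 6 siINTS11 libraries, with Benjamini-Hochberg adjustment at 0.05, and likewise in siCtrl. The interaction used all 12 libraries. SE is the absolute log2 fold change over the root of F. Reads per base is the mean count over the span. No spike-in scaling was possible with 0 yeast-named genes in the tables, so global shifts in nascent output were not analysed here. Counts are not independent molecules, and SEs cover only the spread between libraries.

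The members, lists and tests were chosen with earlier results of these data known. Lists are therefore described by counts and medians, without a test. Named genes are INTS11, ESR1, the 12 largest changes each way (called genes without overlap whose higher group averages 100 counts or more), 3 members of each list and 3 genes of each extreme window by smallest adjusted p, and 6 promoter-site genes. Other genes, and the clock, LXR and FOXO lists, were chosen after their values were seen. Some genes that the rule names are not reported here. Promoter sequences are from RefSeq (GRCh38.p14). The labels do not say whether replicate numbers pair libraries, so no pairing entered the main test. Same-numbered correlations of deviations were -0.0249, 0.0718 and -0.0607, which cannot decide it.

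On simulated counts for 20578 genes, the siINTS11 comparison recovered 63.2% of 1.5-fold and 93.2% of 2-fold changes, with 4.97% false calls. The interaction on 21003 genes recovered 63.2% and 82.3%, with 3.64% false calls. Each simulation changed 200 genes, up or down at random, left the rest unchanged and let all counts follow library depth. In the data 43.6% of genes passed under siINTS11, most by less than 1.5-fold, and dense genes did not follow depth. The simulated rates are therefore not error rates of the calls reported here. Alternatives were median-of-ratios factors, library totals alone, 2 count filters, a replicate block, DESeq2 1.42.0, all 12 libraries in 1 fit, thinning, protein-coding genes only, genes under 0.1 reads per base, and each library left out. List medians under 0.1 reads per base were added after seeing the data. Figures used matplotlib 3.10.9.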

Additional observations from a re-analysis of the deposited data

Results flagged for a closer look

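For 37 genes, which are the genes named here that passed and the remaining p53 targets that did, the difference between U2OS-AsiSI and U2OS was not the same under siINTS11 as under siCtrl, by the interaction test of edgeR over 12 libraries. Values are the log2 difference under siINTS11 minus that under siCtrl, as fitted over the 12 libraries together. Among the genes with the largest falls these were LINC02474 (-1.30), IGFL4 (-0.72), IGFL2-AS1 (-0.70), SHOC1 (-0.67), CCN4 (-0.67), DBP (-0.60), TEF (-0.50) and ABCA1 (-0.50). The 11 p53 targets were FDXR (-0.63), BBC3 (-0.55), TP53INP1 (-0.54), FAS (-0.50), SESN1 (-0.41), BTG2 (-0.39), DDB2 (-0.34), MDM2 (-0.32), ZMAT3 (-0.26), RRM2B (-0.26) and XPC (-0.22). The changes for ZMAT3, RRM2B and XPC did not pass under most alternatives, and that for BTG2 did not without U2OS-AsiSI siINTS11 replicate 3 (adjusted p = 0.0503). BIRC3 (-0.54), ITGB8 (-0.47), TNFAIP3 (-0.45), PER3 (-0.38), CDC25C (-0.36), ZNF322 (-0.33), CCNG2 (-0.32), RUNX2 (-0.26), KLF12 (-0.24) and TGFB2 (-0.23) also had lower values under siINTS11. Higher values were found for SEMA7A (0.82), FOSL2 (0.34), ELL2 (0.33), HOXB7 (0.30), H2AC6 (0.27), RPL18 (0.26), DUSP5 (0.26) and ARNTL (0.26). H2AC6 fell in both arms and by less under siINTS11, while TP53INP1 and SESN1 fell under siINTS11 and rose under siCtrl.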

How the results depend on the processing

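No result changed sign while called, under any alternative run. The 9068 calls under siINTS11 ranged from 7098 (DESeq2) to 8991 over the settings that kept all 6 libraries, and from 7341 to 9122 without 1 library. With the replicate block, which the design does not give, 8759 genes passed, and not every library correlated best with its own number. The 181 changes of at least 2-fold became 333 with no count filter, 34 at a mean count of at least 50, 73 with DESeq2 and 74 among protein-coding genes, and 211 to 301 without 1 library. The interaction count was least stable: 832 became 447 with median-of-ratios factors, 531 with the replicate block, 423 with DESeq2, 544 after thinning and 533 among protein-coding genes, and 286 to 946 without 1 library. The cause was not tested for these, except that the protein-coding and mean-count settings test fewer genes. Genes under 0.1 reads per base hold fewer members of the following lists, and there 5 p53 targets, 2 AP-1 factors, 5 EGR, NR4A and KLF factors and 9 ribosomal protein genes rose, 11 mitotic genes fell, and 6 p53 targets had a lower difference under siINTS11. Without 1 library, 15 to 16 p53 targets, 8 to 9 AP-1 factors, 14 to 15 NF-kappaB targets, 10 to 12 EGR, NR4A and KLF factors, 12 to 15 sterol genes and 69 to 75 ribosomal protein genes rose, 16 to 20 mitotic and 18 to 21 promoter-site genes fell, and 6 to 10 p53 targets had a lower difference. The difference between the longest and shortest genes ranged from -0.37 to -0.30 and the siCtrl count from 5341 to 7016 without 1 library. For single genes examined, 1318 values in the line contrast kept their call, 9 lost it (GRHL2 and SESN1) and 2 gained it (ESR1 and FAS). For changes between the arms, 482 kept it and 138 lost it, mostly for DBP, XPC, ABCA1, ZMAT3, KLF12, RRM2B, IGFL4 and RPL18. The counts of dense genes did not grow with library size, and what depth adds to their values was not tested.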
